A study of Mus musculus with 6 samples.

Results

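The nuclear genes for subunits of the mitochondrial respiratory chain and the ATP synthase were examined in C2C12 cells, an established line of mouse myoblasts, which differentiate into multinucleate myotubes in low serum. They were taken by symbol, as all Ndufa, Ndufb, Ndufc, Ndufs and Ndufv genes, Sdha to Sdhd, all Uqcr genes, Cyc1, the Cox4 to Cox7 genes and all Atp5 genes, without Cox6a1, Cox6a2, Cox7a1, Cox7a2 and pseudogenes. The rule itself uses symbols and no measured value. Of 84 symbols that match, 78 had a probe, among 20659 gene symbols on the array, and 37 of them belong to complex I, 4 to complex II, 9 to complex III, 11 to complex IV and 17 to complex V. In the si-NC group the cells carried a small interfering RNA used as the control, and in the si-SYISL group one aimed at SYISL, a long non-coding RNA. Both groups were then kept in medium with horse serum to differentiate for 2 days, and total RNA of each was hybridised to 3 single-colour arrays. No probe was assigned to SYISL, and the level of the targeted RNA was not analysed here.

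The respiratory chain passes electrons from NADH and succinate through complexes I to IV to oxygen and pumps protons across the inner mitochondrial membrane, and complex V, the ATP synthase, lets them flow back to make ATP. Most subunits are encoded in the nucleus and imported, and the mitochondrial genome encodes the remainder, which the 78 genes do not include. Differentiating muscle cells are known to raise their mitochondrial content, and nuclear genes for these subunits are known targets of the transcription factors NRF1, GABP, YY1 and the oestrogen-related receptor alpha, with the coactivator PGC-1alpha.

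Within each group, replicate 1 and replicate 3 were closer to each other than repeated spots of one probe are (chi-square per probe 0.260 in si-NC and 0.219 in si-SYISL, against 25.0 to 166 in the other 13 pairs of arrays). Their mean was used as a single sample, so that each group had 2 samples. Nothing in the labels gives the replicates separate cultures, so the p-values reflect only how far these samples spread, which may be technical. Probes well above background made up 78.2% to 84.6% of each si-NC array and 87.9% to 90.6% of each si-SYISL array. The skeletal muscle genes Myog, Ckm and Myh3 were well above background on all 6 arrays. Of 12 skeletal muscle markers, 8 were higher (66.7%, against 16.8% of all features) and 1 lower (against 5.85%) at an unadjusted limma p under 0.05. Their median was 0.59 relative to all features.

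Levels below are log2 signals relative to the 75th percentile of the array. They are compared between samples of the same gene and not between genes, since probes differ in brightness. Over all 28561 features (named genes and unnamed probes), the median difference of si-SYISL minus si-NC was 0.16 (log2). Differences of single genes are therefore given relative to that median ± SE, with 2 samples in each group, while p-values test the difference before the subtraction. In bulk RNA, a change in the share of cells that carry a transcript and a change in the amount per cell cannot be told apart.

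The 78 genes together stayed close to the median of all features. Their median difference was 0.17 before and 0.01 after the subtraction, with 41 genes above the median of all features and 37 below it. The differences ran from -0.44 for the complex I gene Ndufc2 to 0.37 for the complex III gene Uqcrc1, that is from 0.738-fold to 1.29-fold. None of the 78 genes passed an adjusted p of 0.05 in limma, where 0 of all features (0%) passed, and the smallest adjusted p among them was 0.142, for Ndufb10. At an unadjusted p under 0.05, 14 of the 78 genes were higher in si-SYISL (17.9%, against 16.8% of all features) and 0 were lower (against 5.85%). The share that was higher is thus near that of all features. In the brightest of 4 equal groups of features by mean signal, which held 75 of the 78 genes, 13.3% were higher. Of those 75 genes, 18.7% were, and the difference was not tested.

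The 14 genes were Ndufa2, Ndufa5, Ndufa9, Ndufa13, Ndufb7, Ndufb10, Ndufs6 and Ndufv3 of complex I, Sdhb of complex II, Uqcrc1 of complex III, Cox7b of complex IV, and Atp5e, Atp5h and Atp5k of complex V. In 48 of the 78 genes (61.5%, against 46.4% of all features), the si-SYISL samples both exceeded the si-NC samples. In 8 genes (10.3%, against 15.8%) both lay below, namely Ndufc2, Ndufa4, Ndufs8, Sdhd, Cox6b1, Cox6b2, Cox4i2 and Atp5pb. The split into higher and lower depended on the scaling of the arrays. With quantile normalisation, 7 genes were higher and 3 lower, Cox6b2, Ndufa4 and Ndufc2, at an unadjusted p under 0.05 (against 9.54% and 8.81% of features), and 26 lay above and 15 below without overlap (against 30.5% and 23.8%). With the median of each array subtracted, 1 was higher, Ndufb10, and 2 were lower, Cox6b2 and Ndufc2 (against 8.77% and 9.79%), and 15 lay above and 9 below (against 27.6% and 24.7%).

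**Figure D1:**
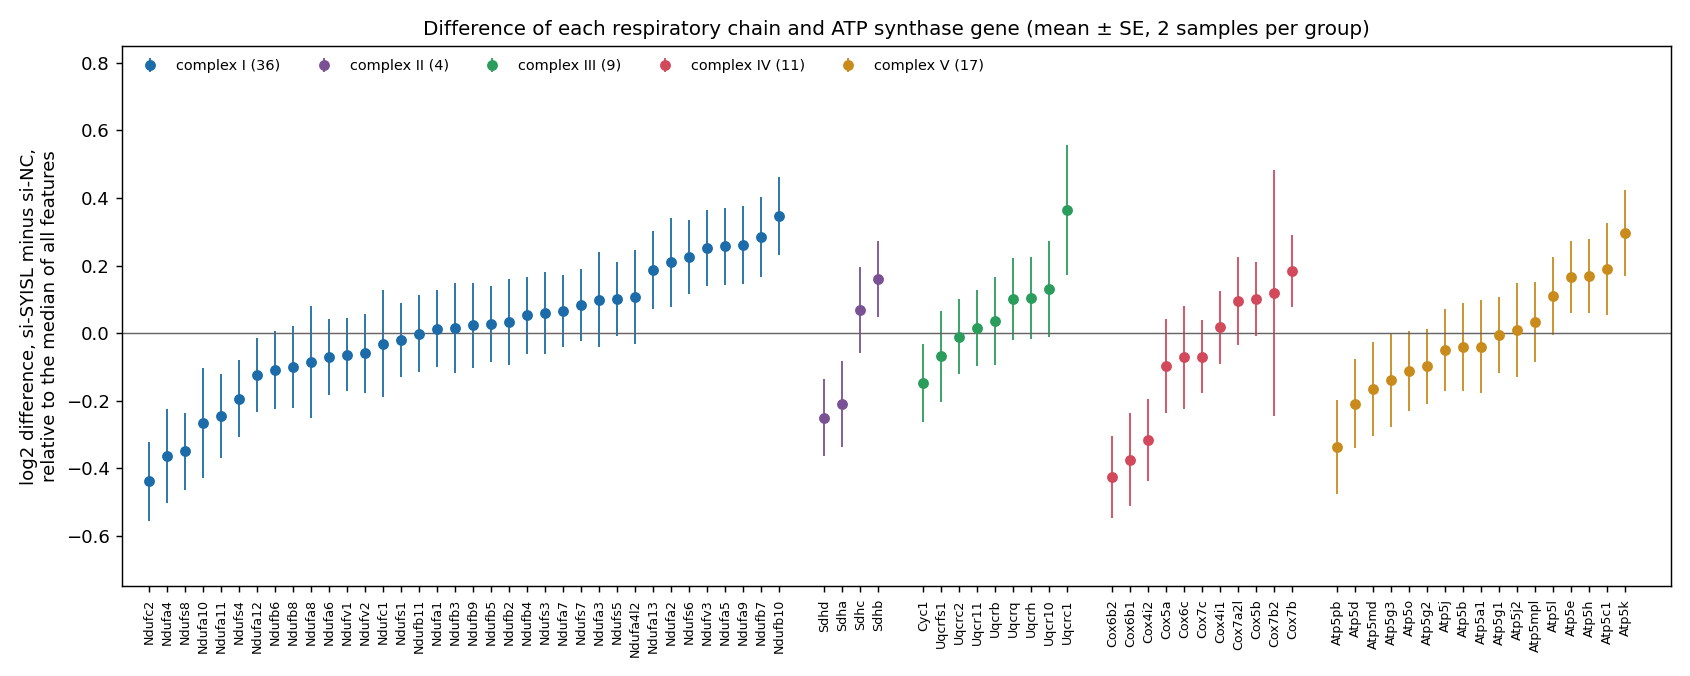
Log2 difference of si-SYISL minus si-NC (vertical axis, relative to the median of all features) for 77 of the 78 genes, ordered by size within complexes I to V. Points are means and bars SE with 2 samples in each group, and the values run from -0.44 for Ndufc2 to 0.37 for Uqcrc1.

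The 78 genes were narrowly spread. The SD of their differences was 0.18 (log2), against 0.44 over all features. All 78 lay within 0.5 (log2) of the median of all features, where 81.9% of all features did. These are bright probes, and 75 of the 78 genes fell into the brightest of 4 equal groups of features by mean signal, with 1 in each of the other groups. Within that brightest group the SD was 0.32 and 89.0% of features lay within 0.5. Some related lists were spread about as narrowly. Their SD was 0.20 for the mitochondrial ribosome, 0.22 for the tricarboxylic acid cycle and 0.18 for carriers and channels. Others were wider, at 0.26 for assembly factors, 0.33 for regulators of mitochondrial gene expression and 0.50 for chain genes outside the symbols used. The median difference before subtraction was 0.36 in the dimmest group and 0.08 in the brightest, so beside features of like brightness the median of the 78 genes, 0.17, was on the higher side. In the brightest group, 13.3% of features were higher at an unadjusted p under 0.05 and 44.6% lay above without overlap. The part of brightness in this offset was not tested.

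**Figure D2:**
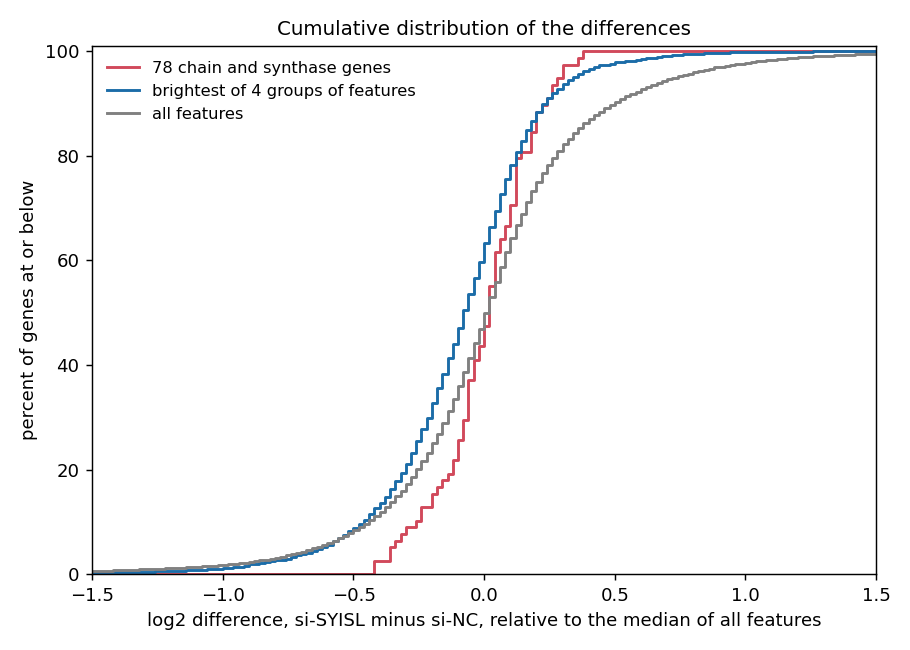
Cumulative percentage of genes (vertical axis) at or below each log2 difference (horizontal axis, relative to the median of all features), for the 78 chain and synthase genes, the brightest group of features and all features. The curve of the 78 genes is the steepest, and 100% of them lie between -0.5 and 0.5, against 89.0% of the brightest group and 81.9% of all features.

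The 4 samples did not contribute equally. After centring each gene on its mean over the samples, the median level of the 78 genes was -0.13 in the si-NC sample of replicates 1 and 3, -0.03 in si-NC replicate 2, and 0.09 in each of the si-SYISL samples. Over all features it was -0.06 and -0.08 in si-NC and 0.03 and 0.11 in si-SYISL. The si-NC sample of replicates 1 and 3 was the lowest for the 78 genes, and for all features si-NC replicate 2 was. Leaving out that si-NC sample, the median of the 78 genes relative to all features was -0.06, and without si-NC replicate 2 it was 0.09. With a sample left out, 1 group has a single sample, which is assumed to vary like the others. The count at an unadjusted p under 0.05 was then 2 without the mean of replicates 1 and 3 of si-NC (2.56%, against 20.99% of features in that fit) and 2 without that of si-SYISL (2.56%, against 16.7%). It was 5 without si-NC replicate 2 (6.41%, against 16.3%) and 7 without si-SYISL replicate 2 (8.97%, against 15.6%).

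**Figure D3:**
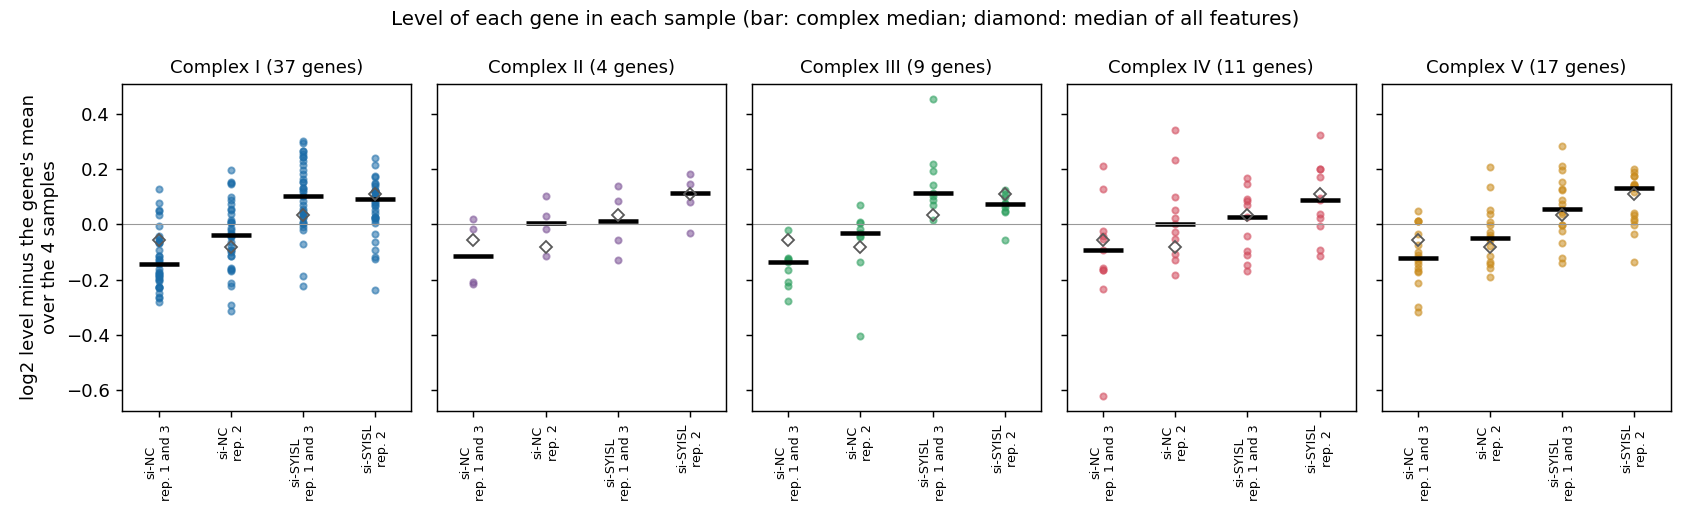
Centred log2 level of each gene (points) in each of the 4 samples, by complex, with the median of the complex as a bar and the median of all features as a diamond. The bars of all 5 complexes lie below the diamond at -0.06 in the leftmost sample, si-NC replicates 1 and 3, and in si-NC replicate 2 they lie above the diamond at -0.08.

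The arrays were read in 2 scans, the first with replicates 1 and 2 and the second with replicate 3, each holding both groups. By the last number of the array barcodes, si-NC arrays lay at positions 1 and 2 and si-SYISL arrays at positions 3 and 4. Replicate 3 had the same position as replicate 1 in each group. Position and group therefore cannot be told apart. The second scan holds no sample apart from those of the first, since replicates 1 and 3 were counted as 1 sample. Within the first scan the median difference of the 78 genes was 0.17, with 13 genes at an unadjusted p under 0.05 (16.7%, against 22.5% of features in that fit), and within the second, with 1 array in each group and no test, it was 0.23.

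Complex I, the NADH dehydrogenase, feeds most electrons into the chain. Its 37 genes had a median relative difference of 0.02, with 8 higher (21.6%, against 16.8% of all features) and 0 lower at an unadjusted p under 0.05, and 25 above (67.6%, against 46.4%) and 3 below (8.11%, against 15.8%) without overlap. These counts follow the symbols and include Ndufa4 and Ndufa4l2, as do those of the membrane arm. In the N module, which binds NADH and takes its electrons, the median of 10 genes was -0.04. In the Q module, which reduces ubiquinone, the median of 6 genes was 0.07, and in the membrane arm, which pumps protons, that of 21 genes was 0.02.

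The core subunits carry the flavin or iron-sulphur centres of the electron path. Ndufv1, which binds NADH and flavin, was at 3.73 and 3.76 in si-NC and at 3.87 and 3.82 in si-SYISL, a relative difference of -0.06 ± 0.11. Ndufs1, the largest iron-sulphur subunit, was at 3.11 and 3.10 in si-NC and at 3.21 and 3.29 in si-SYISL (-0.02 ± 0.11). In both, the si-SYISL samples lay above the si-NC samples by about as much as the median feature.

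Ndufb10, an accessory subunit of the membrane arm, had the smallest p of all 78 genes. It was at 3.59 and 3.48 in si-NC and at 4.08 and 4.001 in si-SYISL. The relative difference was 0.35 ± 0.12 (limma adjusted p = 0.142), with a 95% interval from 0.03 to 0.66. Its 2 si-SYISL samples lay clear of the si-NC samples, and it was the only one of the 78 genes whose interval lay above 0, where 7.72% of all features had such an interval.

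Ndufb7, another membrane arm subunit, was at 3.81 in both si-NC samples and at 4.34 and 4.18 in si-SYISL (0.29 ± 0.12, limma adjusted p = 0.158). Ndufa9, at the ubiquinone end of the Q module, was at 2.27 and 2.38 in si-NC and at 2.72 and 2.78 in si-SYISL (0.26 ± 0.11, limma adjusted p = 0.162). Both genes had si-SYISL samples above the si-NC samples. Ndufa5, an accessory subunit of the Q module, was at 3.24 and 3.34 in si-NC and at 3.74 and 3.67 in si-SYISL (0.26 ± 0.11, limma adjusted p = 0.162). Its second probe gave -0.13, so the direction relative to all features depended on the probe.

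At the other end, Ndufc2, a membrane arm subunit, had the lowest difference of the 78 genes. It was at 3.26 and 3.38 in si-NC and at 3.00 and 3.09 in si-SYISL, a relative difference of -0.44 ± 0.12 (limma adjusted p = 0.252) with a 95% interval from -0.76 to -0.12. The si-SYISL samples lay below the si-NC samples without overlap. Ndufs8, an iron-sulphur subunit of the Q module, was at 0.85 and 0.97 in si-NC and at 0.74 and 0.70 in si-SYISL (-0.35 ± 0.11, limma adjusted p = 0.352). In the same way, 4 of the 78 genes, Ndufc2, Ndufs8, Cox6b1 and Cox6b2, had an interval below 0, where 12.1% of all features did.

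Ndufa4 was first described as a complex I subunit and is now known to belong to cytochrome c oxidase, and Ndufa4l2 is its hypoxia-induced relative. Ndufa4 was at 4.58 and 4.67 in si-NC and at 4.30 and 4.55 in si-SYISL (-0.36 ± 0.14, limma adjusted p = 0.398). Ndufa4l2 was at -4.82 and -4.74 in si-NC and at -4.38 and -4.64 in si-SYISL (0.11 ± 0.14, limma adjusted p = 0.302). The groups did not overlap in either gene, with the pair on opposite sides of the median of all features. The difference between the paralogues was not tested.

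Complex II, succinate dehydrogenase, links the tricarboxylic acid cycle to the chain. Its 4 genes lay on both sides of the median of all features (median -0.07). Sdha, the flavin subunit, was at 3.01 and 3.02 in si-NC and at 2.87 and 3.07 in si-SYISL, so its groups overlapped (-0.21 ± 0.13). Sdhb, the iron-sulphur subunit, was at 3.47 and 3.56 in si-NC and at 3.82 and 3.86 in si-SYISL (0.16 ± 0.11, limma adjusted p = 0.204). Its second probe gave -0.30, and the mean of both probes gave -0.07, which turned its sign. Sdhc, a membrane anchor, was at 3.57 and 3.76 in si-NC and at 3.87 and 3.93 in si-SYISL (0.07 ± 0.13), and the other anchor, Sdhd, was among the 8 genes with si-SYISL samples below.

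Complex III passes electrons from ubiquinol to cytochrome c. Of its 9 genes, 7 lay above (77.8%, against 46.4% of all features) and 0 below without overlap (against 15.8%), and the median relative difference was 0.04. Uqcrc1, one of the core proteins, had the highest difference of the 78 genes but also differed within groups. It was at 1.05 and 0.77 in si-NC and at 1.63 and 1.24 in si-SYISL (0.37 ± 0.19, limma adjusted p = 0.216). The value was 0.60 without si-SYISL replicate 2, and leaving out the other si-SYISL sample gave 0.14.

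The redox subunits of complex III overlapped between groups. The Rieske iron-sulphur protein gene Uqcrfs1 was at 3.20 and 3.44 in si-NC and at 3.38 and 3.44 in si-SYISL (-0.07 ± 0.13). The cytochrome c1 gene Cyc1 was at 3.49 and 3.52 in si-NC and at 3.59 and 3.46 in si-SYISL (-0.15 ± 0.11). Uqcrh, the hinge protein gene that helps cytochrome c bind, was at 4.95 and 5.12 in si-NC and at 5.31 and 5.30 in si-SYISL, without overlap (0.11 ± 0.12, limma adjusted p = 0.267).

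Complex IV, cytochrome c oxidase, reduces oxygen. Its 11 genes had a median relative difference of -0.07, with 5 above (45.5%, against 46.4% of all features) and 3 below (27.3%, against 15.8%) without overlap. Several of its subunits exist as isoforms for different tissues or oxygen levels. The ubiquitous Cox4i1 was at 4.58 and 4.51 in si-NC and at 4.73 and 4.72 in si-SYISL (0.02 ± 0.11), above without overlap by about as much as the median feature. Its isoform Cox4i2, known from lung and low oxygen, was at 1.62 and 1.52 in si-NC and at 1.35 and 1.49 in si-SYISL (-0.32 ± 0.12, limma adjusted p = 0.451), below without overlap.

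Both isoforms of subunit 6b, which joins the monomers of the dimeric enzyme, lay below in the si-SYISL samples. Cox6b1, the ubiquitous form, was at 1.82 and 2.08 in si-NC and at 1.75 and 1.73 in si-SYISL (-0.37 ± 0.14, limma adjusted p = 0.373). Cox6b2, known from testis, was at -1.90 and -2.06 in si-NC and at -2.28 and -2.21 in si-SYISL (-0.43 ± 0.12, limma adjusted p = 0.273). Neither gene had overlapping groups.

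Cox7b, a small membrane subunit, had the smallest p of complex IV. It was at 4.19 and 4.17 in si-NC and at 4.50 and 4.56 in si-SYISL (0.18 ± 0.11, limma adjusted p = 0.183). Its testis form Cox7b2 was well above background on 1 of 3 si-NC arrays and on 3 of 3 si-SYISL arrays. It was at -6.83 and -5.87 in si-NC and at -6.25 and -5.88 in si-SYISL, and its groups overlapped (0.12 ± 0.36). Cox5a, a matrix-side subunit, was at 4.56 and 4.82 in si-NC and at 4.75 and 4.76 in si-SYISL, also with overlap (-0.10 ± 0.14). Cox5b, on the same side, was at 3.98 and 4.03 in si-NC and at 4.30 and 4.23 in si-SYISL, without overlap (0.10 ± 0.11, limma adjusted p = 0.247). Cox7a2l, which joins complexes III and IV into supercomplexes, was at 4.49 and 4.70 in si-NC and at 4.81 and 4.90 in si-SYISL, again without overlap (0.10 ± 0.13, limma adjusted p = 0.294).

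Complex V consists of the catalytic F1 head, the rotating ring of c subunits in the membrane, and the stalks and small membrane subunits. Its 17 genes had a median relative difference of -0.04, with 3 higher at an unadjusted p under 0.05 (17.6%, against 16.8% of all features), and 9 above (52.9%, against 46.4%) and 1 below (5.88%, against 15.8%) without overlap. The 5 genes of the F1 head had a median of -0.04. The alpha subunit gene Atp5a1 was at 4.31 and 4.34 in si-NC and at 4.32 and 4.57 in si-SYISL (-0.04 ± 0.14). The catalytic beta subunit gene Atp5b was at 5.42 and 5.27 in si-NC and at 5.38 and 5.55 in si-SYISL (-0.04 ± 0.13). Both overlapped between groups. Atp5e, the epsilon subunit of the central stalk, was at 4.06 and 4.08 in si-NC and at 4.39 and 4.41 in si-SYISL, without overlap (0.17 ± 0.11, limma adjusted p = 0.192).

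The c subunit is made from 3 genes with the same mature protein and different import signals, and all 3 lay at or below the median of all features. Atp5g1 was at 3.97 and 4.02 in si-NC and at 4.20 and 4.11 in si-SYISL (0.00 ± 0.11). Atp5g2 was at 5.57 and 5.48 in si-NC and at 5.61 and 5.58 in si-SYISL (-0.10 ± 0.11). Atp5g3 was at 5.04 and 4.99 in si-NC and at 4.90 and 5.17 in si-SYISL (-0.14 ± 0.14). Among the 3 genes, the groups overlapped in Atp5g3. How far their probes pick up each other or pseudogene copies was not tested.

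Atp5k, subunit e, which helps hold dimers of the enzyme together, had the highest difference of complex V. It was at 3.48 and 3.65 in si-NC and at 4.08 and 3.97 in si-SYISL (0.30 ± 0.13, limma adjusted p = 0.163), and its second probe gave 0.37. Atp5pb, subunit b of the outer stalk, had the lowest. It was at 3.27 and 3.51 in si-NC and at 3.16 and 3.27 in si-SYISL (-0.34 ± 0.14, limma adjusted p = 0.450), and its second probe gave -0.36. In these 2 genes the probes gave the same direction, and in each the groups did not overlap.

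The probe chosen for a gene mattered. The 78 genes had 106 probes, and 21 genes had several. In 10 of these the probes lay on both sides of the median of all features: Ndufa5, Ndufb4, Ndufb5, Sdhb, Uqcr10, Uqcrq, Cox7c, Atp5c1, Atp5j2 and Atp5l. The probes differed by over 0.3 (log2) in 4 genes, Ndufa5, Ndufb6, Ndufb11 and Sdhb. For Ndufb6 they gave -0.44 and -0.11, and for Ndufb11 -0.36 and 0.00. For Ndufv3, a flavoprotein subunit, both probes lay above, at 0.25 and 0.51.

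**Figure D4:**
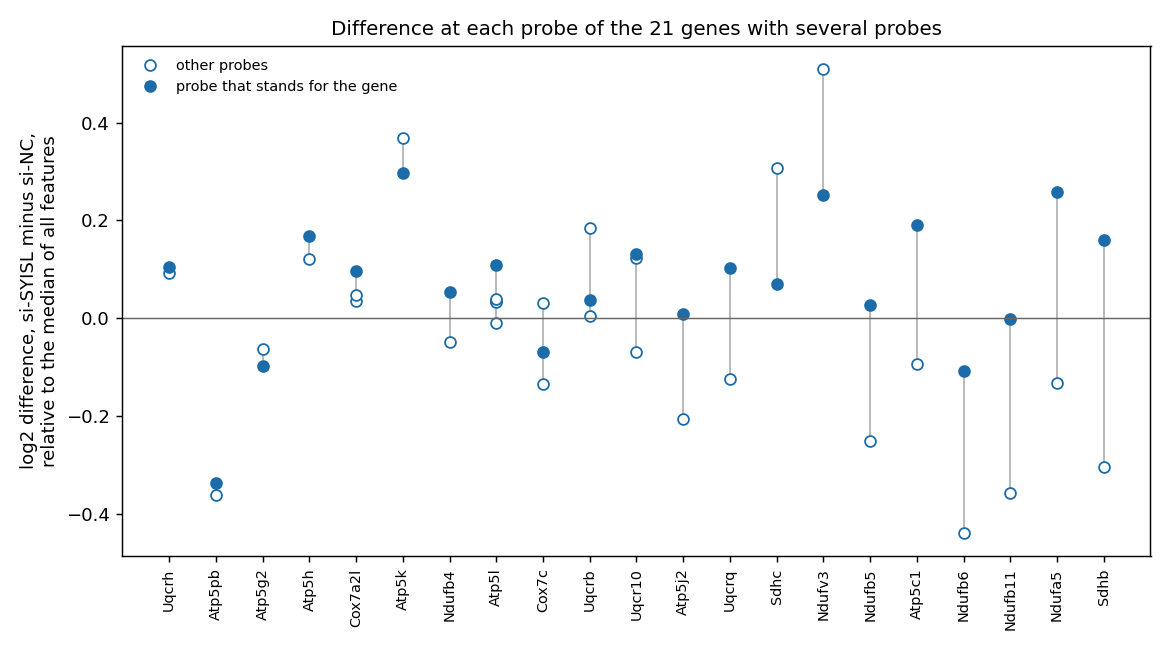
Log2 difference at each probe (vertical axis, relative to the median of all features) of the 21 genes with several probes, ordered by the distance between them. Filled points are the probe that stands for the gene and open points the others, and in Sdhb at the right end they lie at 0.16 and -0.30.

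Promoter sequences were set beside these values, since several of the 78 genes are known targets of the same factors. RefSeq windows of 250 bases before to 50 after the gene start (GRCm38.p6) were matched by symbol for 63 of the 78 genes. The 250 bases before the start are shown for 4 genes from the ends of the range, chosen after their values were seen: Ndufb10 and Atp5k from the high end and Cox6b1 and Ndufc2 from the low end. Ndufb10 lies at chr17:24724424-24724673 and Atp5k at chr5:108434400-108434649, both on the minus strand. Cox6b1 lies at chr7:30626115-30626364 on the minus strand, and Ndufc2 at chr7:97399753-97400002 on the plus strand. Capitals mark matches to the letters of NRF1 in Atp5k, on both strands, and to those of GABP in Cox6b1, on the reverse strand. The stretches of Ndufb10 and Ndufc2 hold no whole match.
Ndufb10: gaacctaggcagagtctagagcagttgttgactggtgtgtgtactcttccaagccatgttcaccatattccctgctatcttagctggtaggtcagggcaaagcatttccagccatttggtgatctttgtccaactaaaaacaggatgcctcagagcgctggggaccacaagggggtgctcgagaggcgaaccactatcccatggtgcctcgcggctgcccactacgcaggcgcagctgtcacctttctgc
Atp5k: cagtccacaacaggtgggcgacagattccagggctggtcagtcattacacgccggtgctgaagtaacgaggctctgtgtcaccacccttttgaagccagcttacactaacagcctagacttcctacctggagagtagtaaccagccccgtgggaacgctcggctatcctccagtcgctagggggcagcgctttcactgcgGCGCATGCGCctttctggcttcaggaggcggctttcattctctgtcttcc
Cox6b1: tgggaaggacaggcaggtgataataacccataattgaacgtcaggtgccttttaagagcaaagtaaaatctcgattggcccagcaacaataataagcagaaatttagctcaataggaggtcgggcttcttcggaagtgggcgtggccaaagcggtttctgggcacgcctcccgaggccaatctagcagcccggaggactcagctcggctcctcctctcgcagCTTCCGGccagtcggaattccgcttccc
Ndufc2: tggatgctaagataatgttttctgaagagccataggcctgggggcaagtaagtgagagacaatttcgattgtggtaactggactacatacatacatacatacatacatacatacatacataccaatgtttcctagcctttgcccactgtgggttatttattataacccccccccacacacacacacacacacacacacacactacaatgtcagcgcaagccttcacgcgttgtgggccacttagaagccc

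The NRF1 match in Atp5k begins 50 bases before the start, and the GABP match in Cox6b1 begins 28 bases before it. An NRF1 match counted for Ndufb10 and a GABP match counted for Atp5k do not lie whole within the letters shown. On either strand of the 300-base windows, GCGCANGCG (NRF1) was found in 19 of the 63 genes (30.2%, against 7.03% of 27025 genes with a window) and CCGGAAG (GABP) in 15 (23.8%, against 9.93%). ATGGCGGC (YY1) was found in 6 (9.52%, against 2.60%), all 6 in complex I, and TCAAGGTCA (oestrogen-related receptor alpha) in 2, Atp5g3 and Sdhd (3.17%, against 0.466%). The letters of these 4 motifs do not contain each other, and Atp5h, Atp5k, Atp5l, Sdhd and Uqcr11 held both the NRF1 and the GABP letters. A match is a description of the sequence and not a bound site.

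The median relative difference was 0.05 in the 19 genes with the NRF1 letters and 0.00 in those without, and the 19 ran from -0.25 for Sdhd to 0.37 for Uqcrc1. It was 0.06 in the 15 genes with the GABP letters and 0.00 in the others, and those ran from -0.37 for Cox6b1 to 0.30 for Atp5k. Genes with the letters of NRF1 or of GABP thus lay at both ends of the range. The median was 0.07 in the 6 genes with the YY1 letters, and the 2 genes with the receptor letters lay at -0.14 and -0.25. These medians carry no test.

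Lists of other genes that build or serve the chain had medians from -0.20 to 0.01. At an unadjusted p under 0.05, 16.8% of all features were higher and 5.85% lower. Of 45 assembly factors measured, which insert cofactors and join subunits, 2 were higher (4.44%) and 4 lower by that threshold. Their median relative difference was -0.13. Those higher were Uqcc1 and Sco2, and those lower were Taco1, Cox16, Tmem126b and Sdhaf1, of which all but Taco1 and Cox16 are named after their values were seen. The smallest p-values were those of Taco1, a translational activator of the mitochondrial Cox1 transcript (-0.66 ± 0.11, limma adjusted p = 0.136), and of Cox16 (-0.67 ± 0.13, limma adjusted p = 0.151). Both si-SYISL samples lay above in 16 of the 45 assembly factors (35.6%, against 46.4% of all features) and below in 17 (37.8%, against 15.8%). Of 12 mitochondrial carriers and channels, 0 were higher and 1 was lower at an unadjusted p under 0.05 (median -0.20). That gene was the aspartate-glutamate carrier Slc25a13 (-0.70 ± 0.11, limma adjusted p = 0.128), and the next smallest p was that of Slc25a11, the oxoglutarate carrier (0.02 ± 0.12, limma adjusted p = 0.374).

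Of 16 genes of the tricarboxylic acid cycle and pyruvate dehydrogenase, 2 were higher (12.5%, against 16.8% of all features) and 0 lower (median -0.11). Those 2 were Ogdh (0.24 ± 0.12, limma adjusted p = 0.181) and Idh3g (0.17 ± 0.12, limma adjusted p = 0.206). The mitochondrial ribosome translates the chain subunits encoded in mitochondria. Of 78 genes for its proteins, 5 were higher (6.41%, against 16.8% of all features) and 3 lower (against 5.85%), with a median of -0.04. Mrpl52 (0.33 ± 0.11, limma adjusted p = 0.137) and Mrpl38 (0.45 ± 0.14, limma adjusted p = 0.143) had the smallest p-values. The others were Mrpl2, Mrpl48 and Mrpl58 among those higher and Mrpl1, Mrpl19 and Mrpl42 among those lower, named after their values were seen. Both si-SYISL samples lay above in 42 of these 78 ribosomal genes (53.8%, against 46.4% of all features) and below in 8 (10.3%, against 15.8%). Of the 78 chain and synthase genes, they lay above in 48 and below in 8. The difference between these lists was not tested, and 0 genes of any of the lists passed after adjustment.

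Of 19 regulators of mitochondrial gene expression, 1 was higher and 2 were lower at an unadjusted p under 0.05 (median -0.09). The higher share was 5.26%, against 16.8% of all features, where 5.85% were lower. Ppargc1a, which encodes PGC-1alpha, was at -1.85 and -1.48 in si-NC and at -2.80 and -2.75 in si-SYISL. The relative difference was -1.27 ± 0.17 (limma adjusted p = 0.110), so both si-SYISL samples lay below the si-NC samples by more than any of the 78 subunit genes did. The other gene that was lower, Tfam, which packages and transcribes mitochondrial DNA, is named after its value was seen (-0.55 ± 0.14, limma adjusted p = 0.209). Ppard, a nuclear receptor of fatty acid oxidation, was at 0.91 and 0.92 in si-NC and at 1.42 and 1.35 in si-SYISL (0.31 ± 0.11, limma adjusted p = 0.144).

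Of 8 chain genes outside the symbols used, 3 were higher and 0 lower at an unadjusted p under 0.05 (median 0.01). The higher share was 37.5%, against 16.8% of all features, where 5.85% were lower. The muscle isoforms Cox8b (1.22 ± 0.11, limma adjusted p = 0.0842) and Cox6a2 (0.66 ± 0.12, limma adjusted p = 0.107) had the smallest p-values, and the third was the muscle isoform Cox7a1 (0.27 ± 0.12), named after its value was seen. Cox8b and Cox6a2 lay above the highest of the 78 genes, 0.37, as did 8 of the 12 skeletal muscle markers, such as Ckm, the muscle creatine kinase (0.65 ± 0.15), and Myh3, the embryonic myosin (0.62 ± 0.12). Myog, which acts in terminal differentiation, differed by -0.02 ± 0.17, and Myod1, which starts the muscle programme, by -0.78 ± 0.13.

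**Figure D5:**
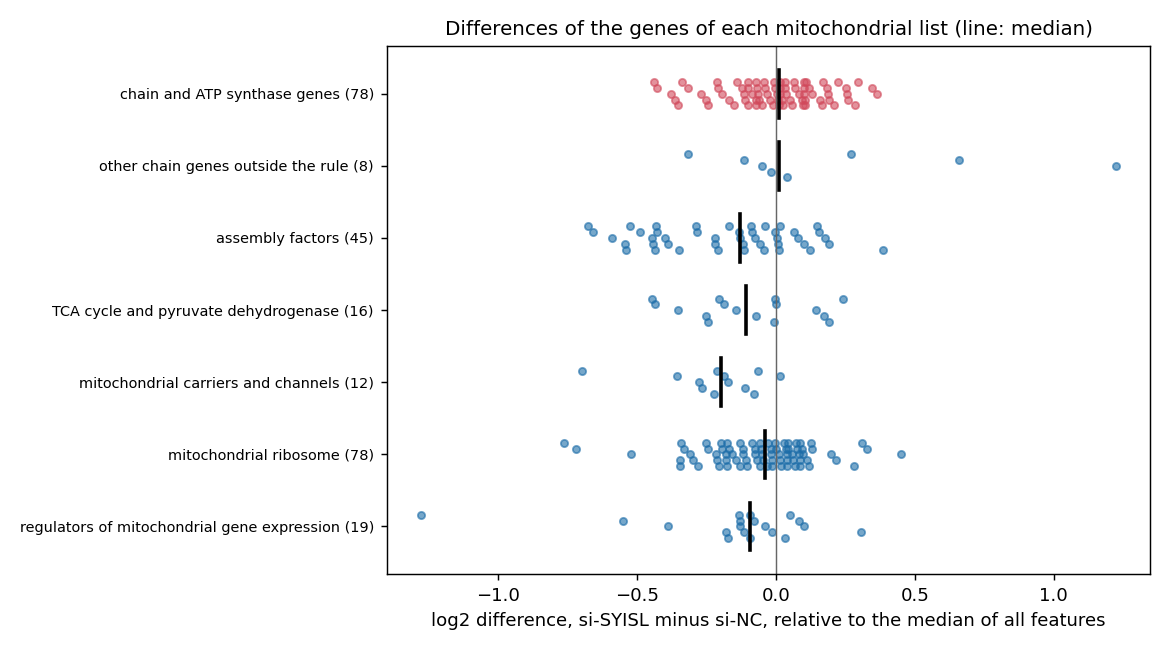
Log2 difference of each gene (horizontal axis, relative to the median of all features) in the 78 chain and synthase genes and in 6 lists of related mitochondrial genes, with each list's median as a line. The 78 genes have a median of 0.01 and the other lists medians from -0.20 to 0.01, with Ppargc1a at -1.27 and Cox8b at 1.22 as the outermost points.

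Markers of other cell types were also set beside these values. At an unadjusted p under 0.05, 2 of 5 macrophage markers (Itgam and Lyz2) and 1 of 4 adipocyte markers (Fabp4) were higher, 0 of 5 endothelial markers passed, and 1 of 5 cardiac markers (Nppb) was lower. Of all features, 16.8% were higher and 5.85% lower. The median centred level of the macrophage markers was -0.06 and -0.13 in si-NC and 0.04 and 0.15 in si-SYISL. Their part in the values of the 78 genes was not tested.

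The precision is limited by the number of arrays. The SE of the 78 genes had a median of 0.12, so that the 95% interval of a gene reached 0.32 (log2), or 1.25-fold, to either side. A difference within that interval could not be told apart from the median of all features with 2 samples in each group. The limit after adjustment was higher, since no feature passed it, including Cox8b at 1.22 (log2). When all 6 arrays were entered as 6 samples, which counts replicates 1 and 3 separately, 33 of the 78 genes were higher and 2 lower, Cox6b2 and Ndufc2, at an adjusted p of 0.05 (against 24.8% and 9.37% of all features). With a variance trend and robust estimation, 1 of the 78 genes was higher, Ndufb10 (limma adjusted p = 0.0394, against 1.96% of all features).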

How the data were processed

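Gene expression was measured on 6 single-colour Agilent arrays. The deposited scanner files hold intensity (gProcessedSignal), which Feature Extraction (11.0.1.1 per the file headers, 10.5.1.1 per the submitters' processing notes) had background-subtracted within each array, and median spot and local background intensity. Flags of 0 or 1 (unit other) mark spots that are well above background, saturated or outliers, as deposited, and 0 spots were saturated. In the deposited series matrix, values of 34456 probes are on a log2 scale (median 8.58 on each array), whose scale was read from a match to the scanner values and whose normalisation by the authors is not given in the sources used here. It served as an alternative.

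Control and outlier spots were left out, the 75th percentile of each array was subtracted from its log2 signals, and spots of a probe were averaged. Of 39429 probes, 27234 were named through their RefSeq accession. A probe was kept if all 3 arrays of either group had it well above background, and the probe with the highest mean stood for a gene. All 78 genes passed, 77 of them on all 6 arrays. Groups were compared with limma 3.58.1 in R 4.3.3 (lmFit, eBayes, two-sided, prior 2.37 and residual 2 degrees of freedom), with Benjamini-Hochberg adjustment over 28561 features. The fit was run on simulated data to check its mean estimates, and its power and error rate there are not reported here. The members and lists were chosen with earlier results of these data known. Named genes are core subunits, paralogue groups, the 6 highest and 6 lowest differences, the 2 smallest p-values of each complex and list, and Myod1, Myog, Ckm and Myh3. Symbols without a probe (6, such as Ndufb1) were not analysed here, and 1 of the 78 genes enters the counts and medians but is not reported here singly. Alternatives were normexp background (offset 50), other scalings and filters, the mean of probes, a variance trend, replicate and scan blocks, and leaving out replicates.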

Additional observations from a re-analysis of the deposited data

How the results depend on the processing

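With 2 samples in each group, small differences cannot be resolved, and no subunit gene passed after adjustment except with the 6 arrays as 6 samples, which counts duplicate arrays separately, and with the variance trend. With the 6 arrays, 35 subunit genes (44.9%) and 9763 features (34.2%) passed. In that fit 48 subunit genes had an unadjusted p under 0.05 (61.5%, against 47.2% of features). With the variance trend and robust estimation, 1 subunit gene (1.28%) and 904 features (3.17%) passed. There 28 subunit genes had an unadjusted p under 0.05 (35.9%, against 25.0% of features). Of all features, 177 passed with normexp background, 71 with the array median subtracted and 83 with the scan block. With the median of kept probes subtracted, an alternative chosen after seeing the data, 1 passed. Leaving out single replicates gave 0 to 276 features. Leaving out the shared sample of replicates 1 and 3, also chosen after seeing the data, gave up to 1379.

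The subunit genes at an unadjusted p under 0.05 were 14 in the reported fit, 3 with the array median or the median of kept probes subtracted (18.6% and 18.9% of features), and 2 to 14 with a sample or replicate left out. Their median difference before subtraction was 0.021 with quantile normalisation, 0.020 with the series matrix, 0.043 with the array median, 0.10 with the median of kept probes, 0.11 to 0.23 with samples left out, and 0.23 within the scan of replicate 3. Relative to all features it was -0.060 to 0.085 with samples left out and 0.13 within the scan of replicate 3. The arrays in the scan of replicate 3 match those of replicate 1, so the values within it do not come from separate samples. The cause of these shifts was not tested.

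Between the groups, the deviations of the samples of replicates 1 and 3 from their group means correlated by -0.03 over the features. With 2 samples in each group, this value cannot show whether samples of the same replicate number were paired. With the replicate block, 8 of the 78 genes had an unadjusted p under 0.05 (10.3%, against 20.6% of features), all among the 14, and no call after adjustment changed. Of 1070 values of single genes under alternatives, 983 kept their call and size within the replicate error. As no gene passed in the reported fit, a kept call means that the gene again did not pass. A further 42 values moved, and 44 passed the threshold where they had not before. The sign turned in 41 values, of which 40 belong to genes whose reported difference is within 1 SE of 0. The other is Sdhb, at -0.074 with the mean of probes.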
